A study of Mus musculus with 4 samples.

Results

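The expression of 9 myelin genes (Mbp, Mog, Mag, Mobp, Cnp, Mal, Opalin, Cldn11 and Ugt8a), chosen by name, was followed across 4 groups of C57BL/6 mouse brain. All 9 were among the 54532 genes listed, and all 9 stood above 5 FPKM, a level corrected for gene length and sequencing depth, in each library. The groups were old tumor-bearing mice, old naive mice, young tumor-bearing mice and young naive mice. Tumor-bearing mice had received 50000 GL261 cells, a mouse glioma line of C57BL/6 origin, by intracranial injection, and their brain tissue from outside the tumor was taken on day 21. Naive mice of each age served as controls. Young mice were aged 8 to 12 weeks. Old mice are described as 8 to 90 weeks of age, a span with the same lower end, so "old" is used here only as labelled. No transgene or drug treatment is given for any group, and the GL261 tag is attached to the naive samples as well. Each group was 1 library. How many mice went into a library is not stated, no test between groups was possible, and every statement compares libraries. Comparisons that share a library are not independent of each other. Parentheses after a fold hold its exact 95% interval, computed from the recovered reads, which covers counting error only.

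Myelin is the multilayered membrane that oligodendrocytes wrap around axons in the brain and spinal cord, where it insulates the axon and speeds conduction. Compact myelin is held together at its cytoplasmic faces by basic proteins and is unusually rich in cholesterol and galactolipids, while adhesion molecules, junction proteins and enzymes occupy its edges and innermost and outermost layers. In mature brain these transcripts come almost entirely from oligodendrocytes and are most abundant in white matter. In bulk tissue, fewer oligodendrocytes and less RNA per oligodendrocyte cannot be told apart.

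Between 19571789 and 23267071 fragments were recovered in the genes of a library, and 14323 to 14994 genes reached 1 FPKM. A gene entered a comparison if either library had 1 FPKM or more, log2 ratios were taken of FPKM + 0.1, and a gene counted as called when at least 2-fold apart. The depth used in the deposited FPKM was 1.19 times the fragments in genes for the old tumor-bearing library and 0.797 to 0.914 times for the other 3. Other scalings therefore moved every log2 ratio of old tumor-bearing over old naive tissue upward, by 0.38 to 0.58. They moved those of old tumor-bearing over young tumor-bearing tissue by 0.15 to 0.39, those of old over young naive tissue by -0.23 to -0.03, and those of young tumor-bearing over young naive tissue by -0.04 to 0.06. Ratios between genes within a library are free of this.

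Among the proteins of the myelin membrane layers and their junctions, Mbp encodes myelin basic protein, which seals the cytoplasmic faces of the membrane (ENSMUSG00000041607, mm10 chromosome 18, 82475146 to 82585637). It had 188 FPKM in the old tumor-bearing, 356 FPKM in the old naive, 397 FPKM in the young tumor-bearing and 425 FPKM in the young naive library. Mobp encodes a second small basic protein of the same compartment (ENSMUSG00000032517, chromosome 9, 120149707 to 120181484) and was listed at 88.0, 118, 150 and 171 FPKM in the same order of libraries. Both were highest in the young naive and lowest in the old tumor-bearing library. Mal, a proteolipid of lipid-rich membrane domains (ENSMUSG00000027375, chromosome 2, 127633226 to 127656695), had 35.6, 61.2, 84.6 and 106 FPKM, again in that order of libraries. Cldn11 encodes the claudin that forms the tight junctions between myelin layers (ENSMUSG00000037625, chromosome 3, 31149920 to 31164324). Its levels were 58.9, 51.9, 81.6 and 90.0 FPKM, so that its lowest library was the old naive one.

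Other members belong to the edges and surfaces of myelin. Cnp encodes a cyclic nucleotide phosphodiesterase that keeps cytoplasmic channels open in the sheath (ENSMUSG00000006782, chromosome 11, 100574904 to 100591729). It was listed at 90.8, 95.7, 123 and 126 FPKM in old tumor-bearing, old naive, young tumor-bearing and young naive tissue, above Mal and Cldn11 in all 4. Mag, an adhesion molecule of the innermost layer that faces the axon (ENSMUSG00000036634, chromosome 7, 30899176 to 30914873), had 29.0, 46.7, 56.0 and 53.7 FPKM. Mog, a glycoprotein of the outermost layer and a known target of autoantibodies (ENSMUSG00000076439, chromosome 17, 37010743 to 37023398), had 17.8, 26.7, 46.0 and 49.4 FPKM. On the deposited scale the old tumor-bearing library stood lowest for Mag by a wide step, whereas for Mog both old libraries lay well below both young ones. The step of Mag, a log2 ratio of -0.68 to old naive tissue, was -0.11 when scaled by fragments in genes.

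The least abundant members were an enzyme and a late membrane glycoprotein. Ugt8a encodes the ceramide galactosyltransferase that makes galactosylceramide, the typical lipid of myelin (ENSMUSG00000032854, chromosome 3, 125865271 to 125938619). Its levels were 6.27, 10.2, 17.1 and 22.5 FPKM in old tumor-bearing, old naive, young tumor-bearing and young naive tissue, which separates all 4 libraries on the deposited scale. Its log2 ratio of old tumor-bearing over old naive tissue, -0.69 there, was -0.12 when scaled by fragments in genes. Opalin encodes a transmembrane glycoprotein of differentiated oligodendrocytes (ENSMUSG00000050121, chromosome 19, 41061710 to 41077113). It had 6.76, 13.7, 16.3 and 12.5 FPKM, lowest in old tumor-bearing and highest in young tumor-bearing tissue. Its log2 ratio of old tumor-bearing over old naive tissue was -1.01 on the deposited scale and -0.44 when scaled by fragments in genes. The reads behind these values ranged from 289 for Opalin in old tumor-bearing tissue to 72946 for Mbp in young naive tissue.

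**Figure D1:**
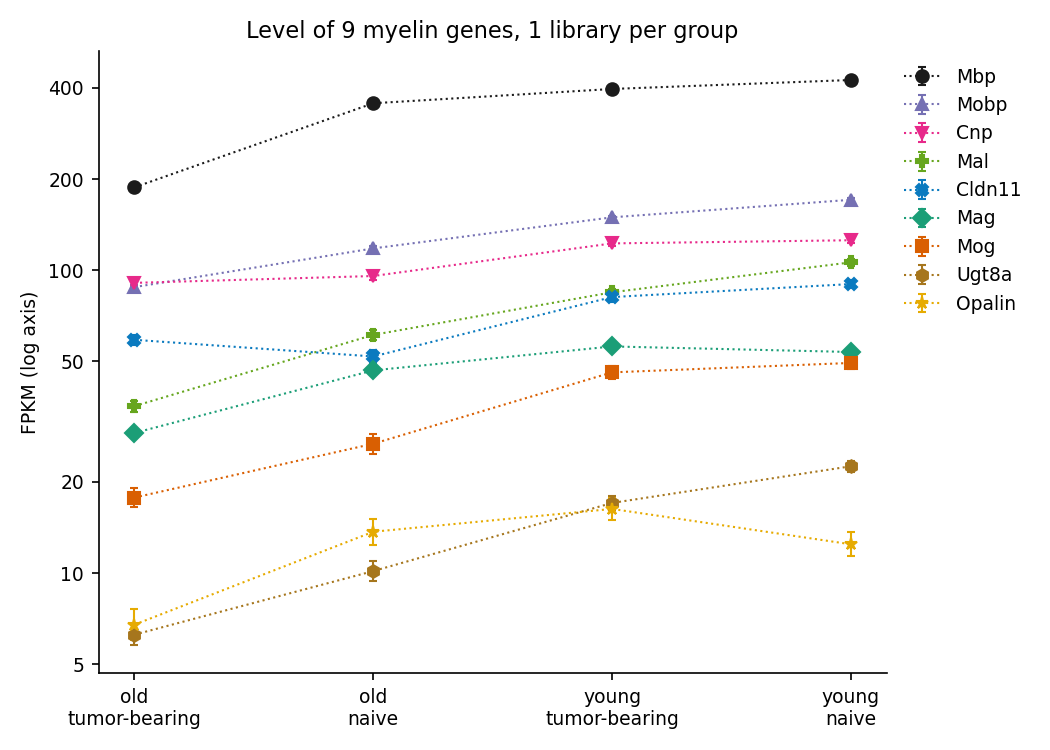
FPKM of each of the 9 myelin genes (vertical log axis) in the 4 libraries, 1 library per group; bars are exact Poisson 95% intervals of the reads and dotted lines only join the points of a gene. Mbp is the highest gene in each library, from 188 FPKM in old tumor-bearing to 425 FPKM in young naive tissue, while Ugt8a and Opalin are the lowest pair throughout.

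The order of the levels was nearly the same in the young naive and old naive libraries, with Mbp, Mobp, Cnp, Mal, Cldn11, Mag and Mog in that order. Opalin and Ugt8a changed places. Opalin stood above Ugt8a in the old naive library (13.7 against 10.2 FPKM) and below it in the young naive one (12.5 against 22.5 FPKM), with counting intervals apart both times. In the young tumor-bearing library the pair could not be separated by their intervals, nor could Mal and Cldn11. In the old tumor-bearing library Cldn11 moved above Mal (58.9 against 35.6 FPKM), and Cnp could not be separated from Mobp. Nor could Opalin and Ugt8a there.

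The start of the transcription unit is shown for 5 members that parted in old naive tissue: Opalin, Mag and Mobp, which lay from slightly above to 1.45-fold below the young naive level, and Mog and Ugt8a, the 2 lowest. Each sequence runs from 250 bases before to 50 bases after a RefSeq start site, 5′ to 3′ on the gene's strand (GRCm38.p6). Capitals mark matches on either strand to the SOX core (ACAAAG or ACAATG), to an E-box (CAGCTG), to the MYRF motif (CTGGCAC or CTGGTAC) or to a TATA box (TATAAA). The letters were chosen after the expression values were seen.
Opalin, chr19:41077064-41077363, minus strand: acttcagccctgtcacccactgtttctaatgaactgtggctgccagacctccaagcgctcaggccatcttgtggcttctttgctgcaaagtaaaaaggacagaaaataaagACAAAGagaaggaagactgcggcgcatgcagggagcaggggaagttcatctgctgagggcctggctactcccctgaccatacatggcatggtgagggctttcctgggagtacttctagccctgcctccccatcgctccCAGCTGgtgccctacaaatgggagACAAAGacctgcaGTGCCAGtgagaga
Mag, chr7:30914814-30915113, minus strand: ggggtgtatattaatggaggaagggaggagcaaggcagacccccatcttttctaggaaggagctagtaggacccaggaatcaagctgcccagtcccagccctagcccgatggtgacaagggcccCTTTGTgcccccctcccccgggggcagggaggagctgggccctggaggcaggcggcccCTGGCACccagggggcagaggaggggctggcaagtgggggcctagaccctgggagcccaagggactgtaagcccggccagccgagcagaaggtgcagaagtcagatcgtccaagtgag
Mobp, chr9:120149492-120149791, plus strand: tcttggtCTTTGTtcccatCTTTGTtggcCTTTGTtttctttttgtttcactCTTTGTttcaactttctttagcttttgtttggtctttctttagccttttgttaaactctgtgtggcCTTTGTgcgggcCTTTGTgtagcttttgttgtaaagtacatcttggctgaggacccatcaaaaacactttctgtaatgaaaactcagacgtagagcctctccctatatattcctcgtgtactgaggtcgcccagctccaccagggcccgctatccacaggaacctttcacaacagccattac
Mog, chr17:37023349-37023648, minus strand: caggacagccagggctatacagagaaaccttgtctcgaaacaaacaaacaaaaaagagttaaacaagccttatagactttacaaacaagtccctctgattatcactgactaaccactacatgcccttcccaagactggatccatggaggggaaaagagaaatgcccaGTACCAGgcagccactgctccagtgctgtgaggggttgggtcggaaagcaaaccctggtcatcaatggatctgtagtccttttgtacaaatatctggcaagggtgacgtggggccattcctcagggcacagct
Ugt8a, chr3:125938603-125938902, minus strand: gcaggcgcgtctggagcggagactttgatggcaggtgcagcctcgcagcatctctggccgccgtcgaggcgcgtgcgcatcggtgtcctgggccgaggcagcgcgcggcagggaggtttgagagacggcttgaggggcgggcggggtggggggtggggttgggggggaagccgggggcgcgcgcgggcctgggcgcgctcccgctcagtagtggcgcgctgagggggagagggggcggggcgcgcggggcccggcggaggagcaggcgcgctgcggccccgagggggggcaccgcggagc

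A window was read for 8 members, all but Mbp. The SOX core, bound by Sox10 and related factors of the lineage, had a match in 4 of the 8, namely Opalin, Mag, Mobp and Cnp, against 28.6% of all 32851 promoters of this length. Mobp held 6 matches, all in its T-rich upstream stretch. No match was found in the windows of Mog, Ugt8a, Mal and Cldn11. The MYRF motif matched in Opalin, Mag, Cnp and Mog (4 of 8, against 7.10% of all promoters), the E-box only in Opalin (1 of 8, against 16.3%), and the TATA box in none of the 8 (13.6% of all promoters). Mag has 3 start sites in the table, and the third had no match. A match is a description of these letters, not a bound site, and enhancers lie outside these windows.

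In young mice the tumor was accompanied by small differences in myelin genes. None of the 9 was at least 2-fold apart between young tumor-bearing and young naive tissue, where 6.90% of 15500 measured genes were (5.05% higher and 1.85% lower). The median log2 ratio of the 9 was -0.10 and that of all genes -0.01, with 7 members below 0 and 2 above. Ugt8a was 1.32-fold lower (1.24 to 1.41) and Mal 1.26-fold lower (1.21 to 1.30), which placed them at the 8.30th and 12.2th percentile of all log2 ratios. Opalin was 1.31-fold higher in tumor-bearing tissue (1.16 to 1.48), at the 83.9th percentile. Mobp was 1.14-fold lower, Cldn11 1.10-fold, Mbp and Mog each 1.07-fold and Cnp 1.02-fold, and Mag was 1.04-fold higher. The interval of Cnp included no difference (0.948 to 1.01 as tumor-bearing over naive), and its sign turned under 3 of 4 other scalings.

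Of 20 other structural and maintenance genes of myelin, 0 were 2-fold apart in young mice (median log2 ratio -0.10). A list of genes known from oligodendrocytes in disease, described further on, had 7 of 10 at least 2-fold higher, against 5.05% of all measured genes. Among the 20 other myelin genes, Ermn, a cytoskeletal protein of the sheath, was the lowest at 1.43-fold lower. Pllp, the proteolipid plasmolipin, was the highest of the 20 at 1.44-fold higher. No precursor, newly forming or mature oligodendrocyte gene and no lineage transcription factor on the lists was 2-fold apart. The regional lists had summed levels in young tumor-bearing and young naive tissue of 78.5 and 86.5 FPKM for cerebral cortex and of 105 and 100.3 FPKM for thalamus. The brainstem sums were 13.2 and 19.9 FPKM, with all 4 measured genes below 0 and Tph2, the serotonin synthesis enzyme of the raphe, at 2.57 against 6.88 FPKM.

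Between the naive libraries of different age the myelin genes parted. In old naive tissue 1 of the 9 was at least 2-fold lower and 0 were 2-fold higher, where 4.93% of 15419 measured genes were lower and 6.71% higher (11.6% apart in either direction). Of the genes apart, 57.7% were higher on the deposited scale and 41.1% with equal FPKM totals. The median log2 ratio of the 9 was -0.53, against 0.06 for all genes, and 8 of 9 were below 0. Ugt8a was 2.22-fold lower in old naive tissue (2.04 to 2.42), at 10.2 against 22.5 FPKM, which put it at the 4.07th percentile of all genes. Mog was 1.85-fold lower (1.69 to 2.02), Mal 1.74-fold (1.66 to 1.82) and Cldn11 1.73-fold (1.63 to 1.84), all under the 7th percentile. Mobp was 1.45-fold lower (1.42 to 1.48) and Cnp 1.31-fold (1.27 to 1.36). Mbp, the most abundant member, was only 1.19-fold lower (1.18 to 1.21) and Mag 1.15-fold (1.10 to 1.20). Opalin was the exception, at 13.7 FPKM in old naive and 12.5 FPKM in young naive tissue, a ratio of 1.10 whose interval included 1 (0.960 to 1.26). Its sign turned under 2 of 4 other scalings, while the other 8 stayed below 0 under all 4.

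**Figure D2:**
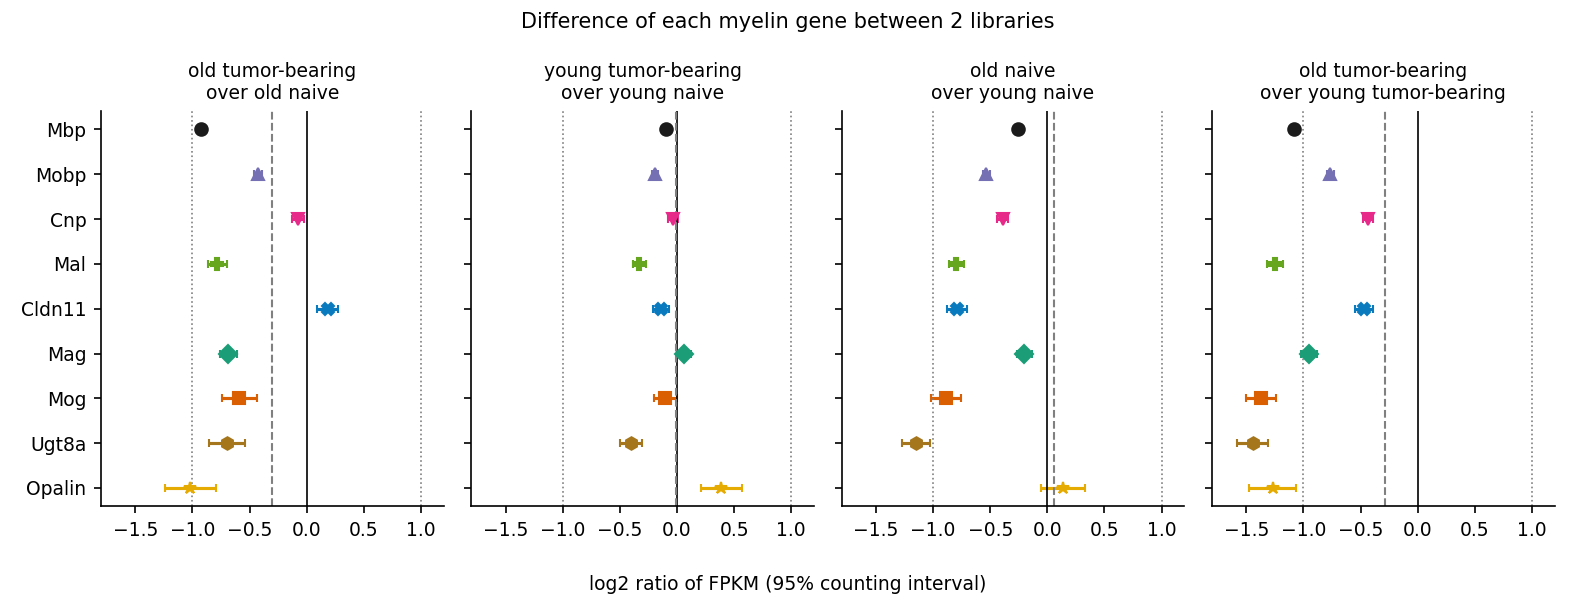
Log2 ratio of FPKM of each myelin gene (rows, ordered by level in young naive tissue) in the 4 comparisons of libraries, with exact 95% counting intervals; the dashed line is the median of all measured genes and dotted lines mark 2-fold. Old naive over young naive tissue spreads the genes from Ugt8a (-1.14) to Opalin (0.14), whereas young tumor-bearing over young naive tissue keeps them between -0.40 and 0.39.

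Other genes of the sheath lay in the same range. Of the 20 other myelin genes, 18 were below 0 and 1 was at least 2-fold lower (median -0.42), namely the tetraspanin Tspan2 at 18.8 against 38.1 FPKM. Fa2h, which hydroxylates the fatty acids of galactolipids, was 1.47-fold lower (1.34 to 1.62), and 7 of 8 genes of sphingolipid synthesis were below 0 (median -0.31). Cholesterol synthesis went the other way, with 8 of 10 measured genes above 0 (median 0.35), and 0 of 10 were 2-fold apart. Among mature oligodendrocyte genes, the protease gene Klk6 was 4.06-fold lower, at 2.20 against 8.92 FPKM, and S100b 1.91-fold lower.

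Of 10 lineage transcription factors, 6 were below 0 in old naive tissue and 1 was at least 2-fold lower (median -0.24, and -0.46 to -0.26 under other scalings). Sox10, the transcription factor that oligodendrocytes need to differentiate, was 1.26-fold higher in old naive tissue (1.16 to 1.37) at 24.5 against 19.4 FPKM. Myrf, which switches on myelin genes in differentiating cells, was 1.16-fold higher (1.08 to 1.25), a sign that turned with equal FPKM totals. Olig2 was 1.25-fold lower, Nkx2-2 1.93-fold lower and the precursor gene Pdgfra close to level (1.05-fold lower, interval of the ratio 0.872 to 1.03). Tcf7l2 was 7.21-fold lower in old naive tissue, at 0.695 against 5.01 FPKM, but this gene is also strongly expressed in thalamic neurons. Of the genes of newly forming oligodendrocytes, Tmem163 was 2.97-fold lower, and Enpp6 stood at 1.15 against 2.30 FPKM.

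Regional markers, a choice made after the values were seen, differed between the same 2 libraries. All 8 cerebral cortex genes were higher in old naive than in young naive tissue (3 of 8 at least 2-fold, summed 164 against 86.5 FPKM). Of 7 measured thalamus genes 5 were at least 2-fold lower (summed 20.7 against 100.3 FPKM over the 8 listed). All 7 measured choroid plexus genes were at least 2-fold lower (summed 7.90 against 417 FPKM). Of 4 measured brainstem genes 3 were at least 2-fold lower. Slc6a2, the noradrenaline transporter, was listed at 0 in old naive tissue and had 81 reads in young naive tissue. Myelin is denser in brainstem and thalamus than in cortex. The part of the sampled region in the lower myelin genes was not tested, and with 1 library per group it cannot be told apart from age.

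In old mice the tumor comparison gave lower myelin genes on the deposited scale, within a library pair in which most genes differed. Of the 9, Opalin alone was at least 2-fold lower and 0 were 2-fold higher in old tumor-bearing tissue. Of 16488 measured genes 52.0% were apart by that much, 31.4% lower and 20.6% higher. The higher ones made up 39.6% of these calls on the deposited scale and 52.7% to 59.9% under 4 other scalings. Their median log2 ratio was -0.68 and that of all genes -0.31. Opalin was 2.03-fold lower (1.74 to 2.37), at 6.76 against 13.7 FPKM. Mbp was 1.89-fold lower (1.87 to 1.92), Mal 1.72-fold (1.62 to 1.82), Ugt8a 1.62-fold (1.46 to 1.80), Mag 1.61-fold (1.53 to 1.70) and Mog 1.51-fold (1.35 to 1.67). Mobp was 1.34-fold lower (1.31 to 1.37) and Cnp 1.05-fold (1.02 to 1.09). Cldn11 was the only member above 0, at 58.9 FPKM in old tumor-bearing and 51.9 FPKM in old naive tissue, 1.13-fold higher (1.06 to 1.21).

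The direction of some members depended on how the libraries were scaled. Cnp turned positive under all 4 other scalings and Mobp under 3 of them, while Mbp, Mog, Mag, Mal, Opalin and Ugt8a stayed below 0 and Cldn11 above 0 under all 4. The median of the 9 lay between -0.30 and -0.11 under those scalings, while that of all genes lay between 0.07 and 0.26, and no member was then 2-fold apart. As a share of fragments in genes, the 9 held 0.346% of the old tumor-bearing library (Wilson 95% interval 0.343 to 0.348) and 0.376% of the old naive one (0.374 to 0.379). The same share was 0.512% in young tumor-bearing and 0.535% in young naive tissue, so by this measure the 2 old libraries lay together, below the 2 young ones.

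**Figure D3:**
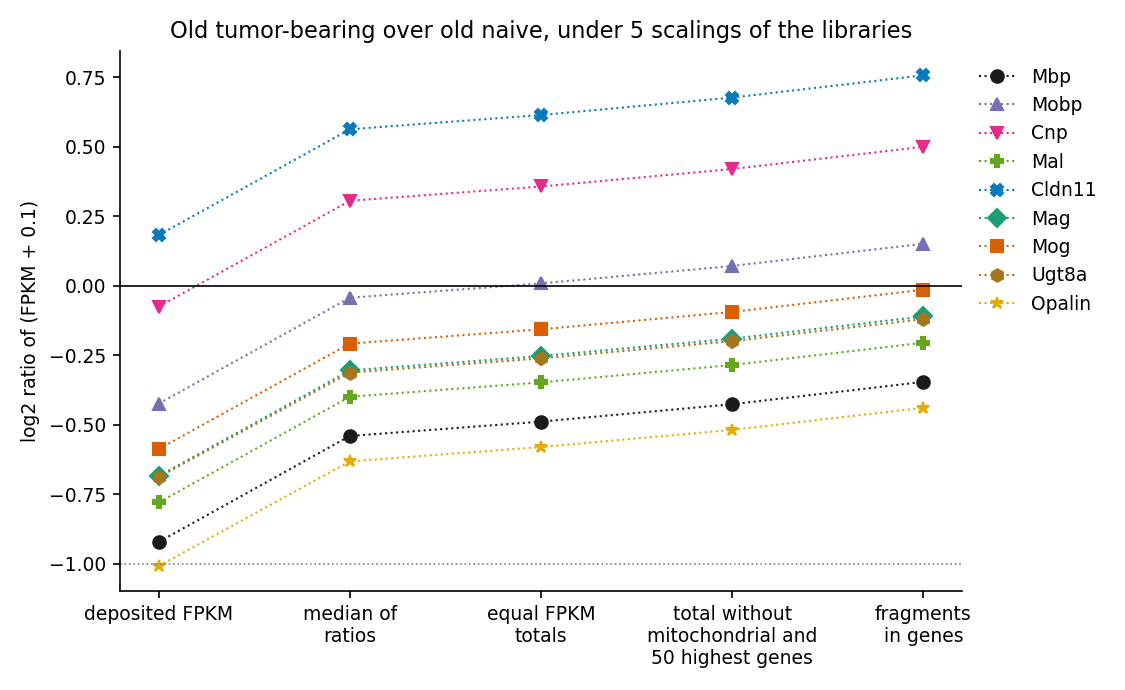
Log2 ratio of (FPKM + 0.1) of each myelin gene, old tumor-bearing over old naive tissue, on the deposited scale and under 4 other scalings of the libraries (horizontal axis), with the dotted grey line at 2-fold lower. The genes keep their order, from Opalin at the bottom to Cldn11 at the top, while the whole set moves up by 0.38 to 0.58.

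Markers of several other cell types differed between these libraries as well, where 31.4% of all measured genes were at least 2-fold lower and 20.6% higher. Of 10 microglia markers 1 was higher and 1 lower by that much (median 0.13, and 0.51 to 0.70 under other scalings). Of 10 endothelial markers 1 was higher and 3 lower (median -0.52, and -0.15 to 0.04 under other scalings). Of 10 neuron markers 9 were at least 2-fold lower (median -2.57, summed 391 against 2033 FPKM), and of 10 astrocyte markers 7 (median -1.43, summed 385 against 796 FPKM). Of 9 measured genes of the junction between axon and glia, most of them axonal, 8 were lower by 2-fold or more (median -2.04), among them Cntnap1, the axonal partner at the paranode, at 17.5 against 88.4 FPKM. Cycling cell markers were all higher (10 of 10, summed 199 against 1.46 FPKM), as were T and NK cell markers (10 of 10, summed 51.4 against 1.17 FPKM, with Cd3e, Cd3d and Gzmb listed at 0 in old naive tissue). Of 8 measured monocyte and macrophage markers 7 were at least 2-fold higher (summed 275 against 14.8 FPKM over the 10 listed). The summed cortex markers were lower (26.7 against 164 FPKM) and the summed thalamus and choroid plexus markers higher (45.8 against 20.7 FPKM and 462 against 7.90 FPKM). Of 7 measured thalamus genes 2 were at least 2-fold higher (median 0.34), and most of the rise in their sum was Prkcd, at 23.5 against 3.15 FPKM. The part of this shift in cells and regions in the myelin values was not tested.

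Within the oligodendrocyte lineage the genes of old tumor-bearing tissue went both ways. In the list of 20 other myelin genes, 3 stood 2-fold or more above and 4 below old naive tissue. Of all measured genes 20.6% were higher and 31.4% lower by that much. The median of the 20 was -0.47, and between -0.09 and 0.10 under other scalings. The higher ones included the tetraspanin gene Cd9, at 89.4 against 14.7 FPKM, which many other cells express, and Anln, at 19.5 against 3.80 FPKM, which encodes anillin and also serves cell division. Among the lower ones were Omg, an adhesion glycoprotein of neurons and oligodendrocytes, at 11.4 against 59.6 FPKM, and Tppp, a tubulin-binding protein, at 26.5 against 125 FPKM.

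Sox10 had 156 FPKM in the old tumor-bearing library and 24.5, 21.9 and 19.4 FPKM in the old naive, young tumor-bearing and young naive ones, 6.38-fold higher in old tumor-bearing than in old naive tissue (6.00 to 6.78). Olig2, a factor that specifies the lineage, was 1.52-fold higher (1.36 to 1.69), whereas Myrf was 1.38-fold lower on the deposited scale (1.29 to 1.49) at 7.90 against 10.9 FPKM, a sign that turned under 2 of 4 other scalings. Sox8 was 2.54-fold lower and Zfp536 2.34-fold lower on the deposited scale. Nkx2-2 was higher, at 2.98 against 1.29 FPKM, as was Tcf7l2, also a gene of thalamic neurons, at 2.89 against 0.695 FPKM. Of 9 measured lineage factors 3 were at least 2-fold higher and 2 lower, against 20.6% and 31.4% of all measured genes. The median of the 9 factors was -0.16, and 0.22 to 0.42 under other scalings. Among 10 precursor genes only Sox6, a transcription factor gene, was higher by 2-fold or more on the deposited scale, and 5 were lower. Of all measured genes 20.6% were higher and 31.4% lower by that much. Pdgfra stood at 2.72 against 6.10 FPKM and Ptprz1 at 6.22 against 17.9 FPKM. The median of the 10 was -0.64, and -0.29 to -0.10 under other scalings.

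The lipid genes of old tumor-bearing tissue also split. Cers2, which makes the very long chain ceramides of myelin but is active in many tissues, was 2.49-fold higher (2.31 to 2.69), and the fatty acid elongase gene Elovl1 2.79-fold higher (2.47 to 3.15). Fa2h had a log2 ratio of -0.96, and Gal3st1, which makes the myelin lipid sulfatide, was 1.87-fold lower (1.54 to 2.27). Of 10 measured genes of cholesterol synthesis 5 were at least 2-fold lower and all 10 were below 0 on the deposited scale (median -1.08, and -0.70 to -0.51 under other scalings). On the deposited scale 31.4% of 16488 measured genes were lower by that much, and the median of all genes was -0.31. Galc, the enzyme that breaks down galactosylceramide, was 2.33-fold lower, at 1.17 against 2.73 FPKM. Klk6 was 8.97-fold higher in old tumor-bearing tissue (6.76 to 12.1). It had 19.7 FPKM there, 2.20 FPKM in old naive and 8.29 and 8.92 FPKM in young tumor-bearing and young naive tissue. The old naive library was thus also the lowest of the 4. Klk6 is 1 of 10 mature oligodendrocyte genes on a list that moved both ways. By 2-fold or more, 4 members stood above old naive tissue, Klk6 among them, and 3 stood below it. Those 3 included Ptgds, at 63.3 against 397 FPKM, and Grm3, at 3.77 against 21.5 FPKM. The median log2 ratio of the list was -0.54, and -0.16 to 0.03 under other scalings.

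Most genes of a list known from oligodendrocytes in disease were higher in both tumor-bearing libraries. In old tumor-bearing over old naive tissue 9 of 10 were at least 2-fold higher (median 3.46), against 20.6% of all measured genes. The exception was Sgk1, at 10.6 against 14.3 FPKM. In young tumor-bearing over young naive tissue 7 of 10 were at least 2-fold higher (median 1.60), against 5.05% of all measured genes, and 2 were below 0. Serpina3n, a protease inhibitor, had 339 FPKM in old tumor-bearing and 7.87 FPKM in old naive tissue, and 30.7 FPKM in young tumor-bearing and 9.17 FPKM in young naive tissue. The complement gene C4b had 79.7 and 17.4 FPKM in the old tumor-bearing and old naive libraries, and 30.3 and 3.92 FPKM in the young tumor-bearing and young naive ones. Astrocytes and immune cells express most genes of this list too, so the values do not say which cells carried them.

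Between the tumor-bearing libraries all 9 myelin genes were lower in old than in young tissue, and this held under the 4 other scalings. On the deposited scale 5 of the 9 were at least 2-fold lower, where 29.8% of 16562 measured genes were lower, 19.0% higher and 48.9% apart in either direction. The higher ones made up 39.0% of those calls, and 44.8% to 55.2% under other scalings. The median of the 9 was -1.08, against -0.28 for all genes. Ugt8a was 2.72-fold lower in old tumor-bearing tissue (2.48 to 2.99), Mog 2.59-fold (2.37 to 2.83), Opalin 2.41-fold (2.09 to 2.78), Mal 2.37-fold (2.26 to 2.50) and Mbp 2.11-fold (2.08 to 2.14). Mag was 1.93-fold lower (1.84 to 2.02) and Mobp 1.70-fold (1.66 to 1.74). Cldn11 was 1.38-fold lower (1.31 to 1.46) and Cnp 1.35-fold (1.31 to 1.39). Under other scalings 1 to 4 of the 9 were 2-fold lower and the median lay between -0.93 and -0.68. Sox10 was 7.13-fold higher in old tumor-bearing tissue (6.74 to 7.56). In the same comparison 9 of 10 neuron markers (median -2.07), 7 of 10 astrocyte markers (-1.71) and 7 of 8 cortex markers (-1.37) were at least 2-fold lower. All 10 cycling cell markers (3.96) and all 10 T and NK cell markers (2.93) were at least 2-fold higher. Of 10 microglia markers 2 were higher and 0 lower by that much (0.26), and of 10 endothelial markers 1 was higher and 3 lower (-0.31). The part of these cells and regions in the myelin values was not tested.

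**Figure D4:**
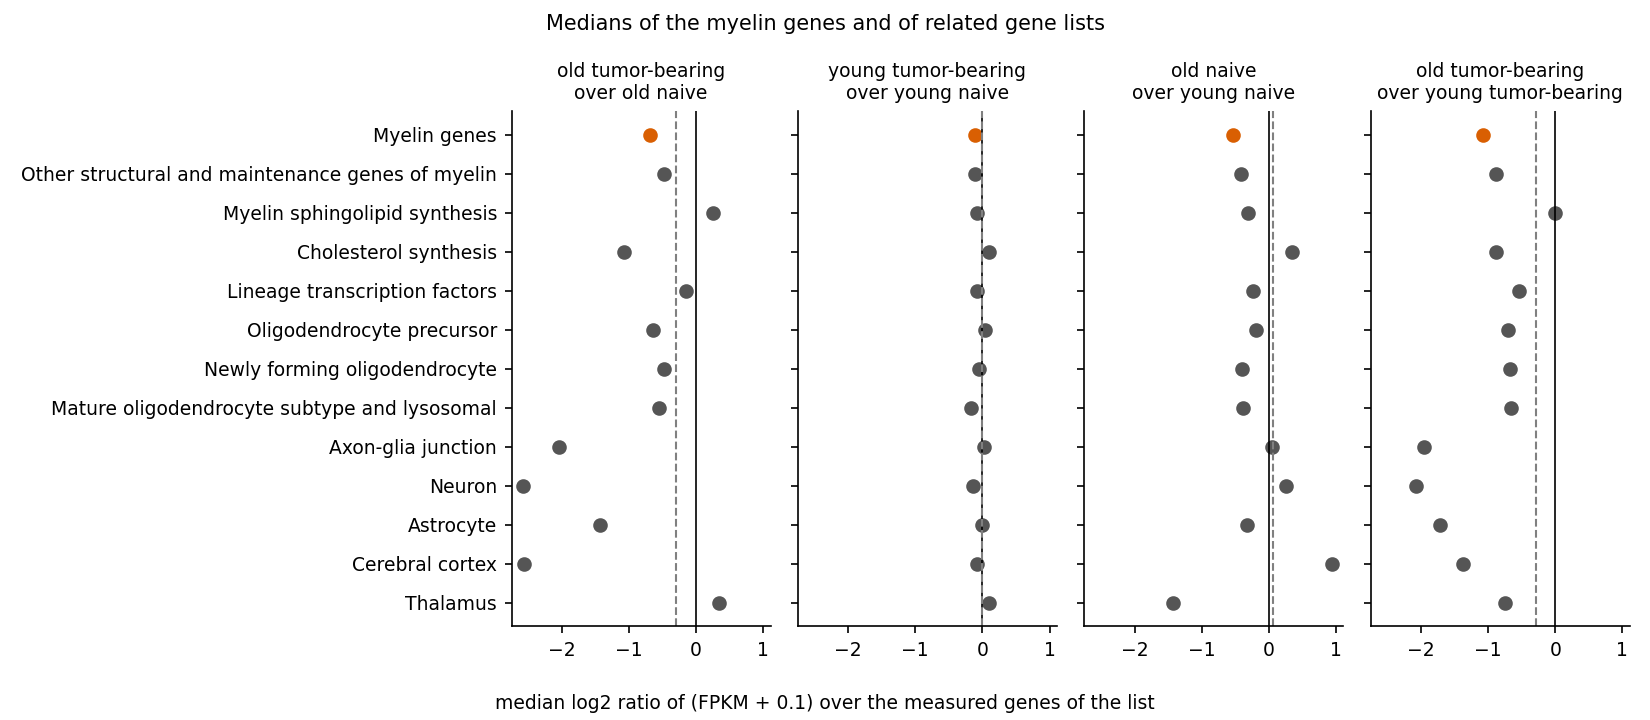
Median log2 ratio of (FPKM + 0.1) over the measured genes of each list (rows), with the 9 myelin genes in orange, for the 4 comparisons; the dashed line is the median of all measured genes. In old tumor-bearing over old naive tissue the myelin median (-0.68) lies above the neuron median (-2.57) and below that of sphingolipid synthesis (0.25). In old naive over young naive tissue the cortex (0.93) and thalamus medians lie on opposite sides of 0.

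The design crosses age with tumor, so the log2 ratio of young tumor-bearing over young naive tissue was subtracted from that of old tumor-bearing over old naive tissue. With 1 library in each group this difference has no test, and its intervals are normal approximations of counting error. It was -1.39 for Opalin (-1.67 to -1.11), which was lower in old tumor-bearing and higher in young tumor-bearing tissue than in the naive library of its age. It was -0.82 for Mbp (-0.85 to -0.80), -0.48 for Mog (-0.66 to -0.30), -0.45 for Mal (-0.55 to -0.35), -0.29 for Ugt8a (-0.47 to -0.11) and -0.23 for Mobp (-0.28 to -0.19). For Mag, lower with a tumor in old mice and close to level in young ones, it was -0.745 (-0.84 to -0.65). For Cnp it was -0.04 (-0.11 to 0.02), and for Cldn11 alone it was above 0 on the deposited scale, at 0.32 (0.21 to 0.44). Mobp, Cnp and Ugt8a also turned positive under all 4 other scalings, and Mog and Mal when scaled by fragments in genes. Mbp, Mag and Opalin stayed below 0 under all 4. The median of the 9 was -0.45, close to the -0.32 of all genes, and under the 4 other scalings it lay between -0.07 and 0.07.

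Within a library the members can be compared with each other free of scaling. Cnp over Ugt8a was the pair whose ratio varied most of the 9 members, at 14.5 in old tumor-bearing, 9.42 in old naive, 7.19 in young tumor-bearing and 5.57 in young naive tissue. Cldn11 over Mbp was 0.314 in the old tumor-bearing and 0.146 in the old naive library, with 0.206 in young tumor-bearing and 0.212 in young naive tissue between them. Opalin over Ugt8a was 1.08, 1.35, 0.956 and 0.553 in the same order of libraries, lowest in young naive tissue. Mog over Mbp was 0.116 in both young libraries and lower in both old ones, at 0.0946 in old tumor-bearing and 0.0752 in old naive tissue. Mag over Mbp varied least of these pairs, between 0.127 and 0.155.

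**Figure D5:**
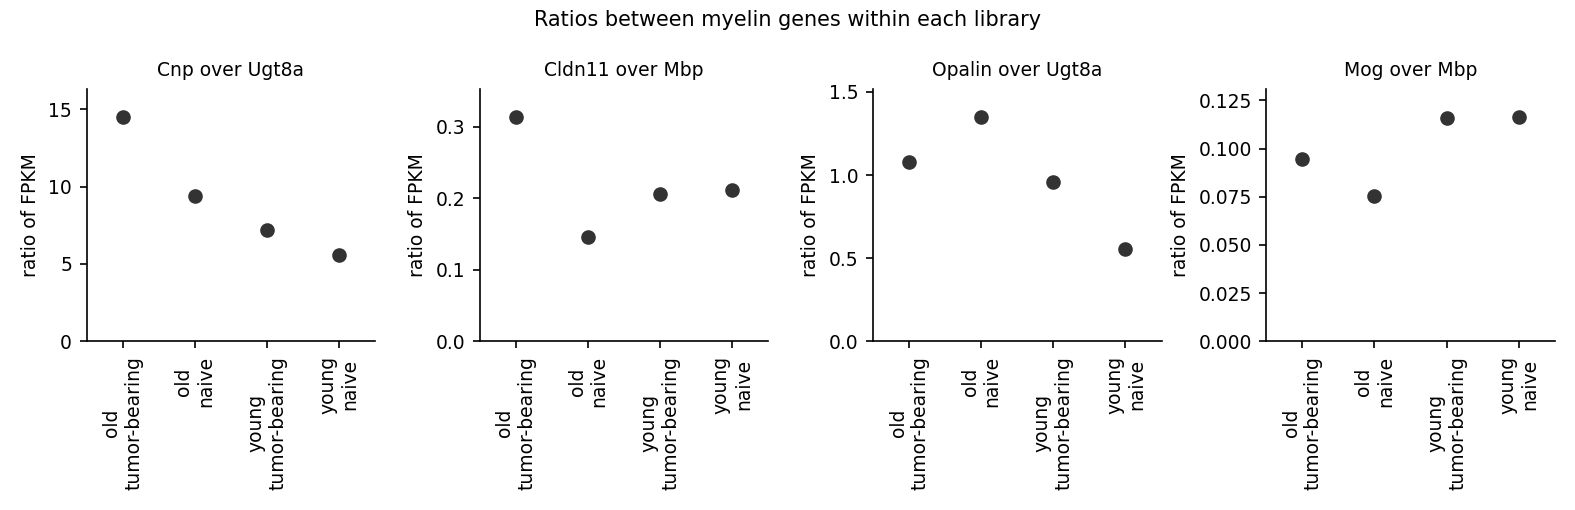
Ratio of FPKM of 4 pairs of myelin genes within each of the 4 libraries, each panel with its own axis from 0. Cnp over Ugt8a runs from 14.5 in old tumor-bearing to 5.57 in young naive tissue, and Cldn11 over Mbp has its highest and lowest values in the 2 old libraries.

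By mean profile over the 4 libraries (log2 of FPKM + 0.1, centred per gene), the 9 stood at -0.66 in old tumor-bearing, -0.11 in old naive, 0.34 in young tumor-bearing and 0.43 in young naive tissue. Of 6116 other protein-coding genes at 5 FPKM or more in all 4 libraries, Tprkb was among the closest, with a largest difference of 0.03 in any library and 7.54, 11.1, 14.6 and 15.7 FPKM in the same order. Wwp1 (0.05), Mfn1 (0.07) and Sacm1l (0.07) were also close. The members themselves differed from their mean profile by 0.13 (Mobp) to 0.44 (Cldn11). As many as 1233 of the 6116 genes came as close as the farthest member and 174 as close as the median member, so 4 libraries do not single out the myelin profile.

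Some of these genes are also used by Schwann cells, which make myelin in peripheral nerve. Pmp2, which encodes a lipid-binding protein of Schwann cell myelin, had 1 read in the old tumor-bearing library and was listed at 0 in the other 3. Exons of Cnp overlap those of Dnajc7 on the opposite strand over 154 bases, and exons of Mobp share 79 bases with Gm38642 on the same strand. The labels describe both stranded and unstranded preparation, so reads in the Cnp overlap cannot be assigned to 1 strand.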

How the data were processed

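Poly-A RNA of brain tissue was sequenced as paired-end Illumina libraries, per the labels' protocols, 1 library per group. The submitters' processing notes name HISAT2 and the mm10 build. How reads were counted, with which annotation and filters, and whether mice were pooled is not stated in the sources used here. The deposited values were FPKM, made by the authors, 1 column per library, per the file headers. Ensembl IDs were named with GENCODE M21, which matched 54495 of 54532. Reads were recovered, since FPKM times exon length came in whole steps of 1 read: 31928 of 32846 genes above 0 (97.2%) were whole in all 4 libraries, within 0.03 reads or 2e-05 of the value. For Mbp and Opalin the exon lengths that made all 4 values whole, 8403 and 1838 bases, replaced those of the annotation (8469 and 2946). Intervals and recovery were tested on simulated data. No molecular identifiers are described, so several reads may stem from 1 molecule.

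No count test was run, since each group was 1 library. The floor was 1 FPKM, the pseudocount 0.1 and the call a 2-fold difference. Up to 4 genes per list were named by size of log2 ratio, besides the 9 members, Sox10, Myrf, Pdgfra and Olig2. Some genes that the rule names are not reported here. C4b in the old libraries and 4 regional lists were added after values were seen. Alternatives were 4 scalings, 2 pseudocounts, 2 floors and protein-coding genes alone. The members and lists were chosen with earlier results of these data known. Promoter sequences are those of RefSeq (GRCm38.p6), found for 8 of the 9 members. Python 3.11.15, numpy 2.4.6, scipy 1.17.1 and pandas 2.3.3 were used.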

Additional observations from a re-analysis of the deposited data

Results flagged for a closer look

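Tumor-bearing over naive tissue went in opposite directions at the 2 ages for 3 members, a difference that was not tested because each group was 1 library. Opalin had a log2 ratio of -1.01 in old and 0.39 in young mice, Mag of -0.68 in old and 0.061 in young mice, and Cldn11 of 0.18 in old and -0.14 in young mice. Old over young tissue went in opposite directions with and without a tumor for Opalin alone, at -1.26 between the tumor-bearing and 0.14 between the naive libraries, again untested. The sign of the last value turned under 2 of 4 other scalings.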

How the results depend on the processing

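The median log2 ratio of the 9 myelin genes in old tumor-bearing over old naive tissue was -0.68 as deposited, -0.30 with median-of-ratios scaling, -0.11 when scaled by fragments in genes, -0.25 with equal FPKM totals and -0.19 with a total that omits mitochondrial genes and the 50 most abundant genes. The count of members 2-fold apart was then 0 in each case, and also 0 with a pseudocount of 1, against 1 (Opalin). In the same order of scalings, the median in old over young tumor-bearing tissue was -0.68, -0.70, -0.93 and -0.76, with 1, 1, 4 and 2 members 2-fold apart against 5. The median in old over young naive tissue was -0.67 by fragments, -0.76 with equal totals and -0.66 without the highest genes, with 2, 4 and 2 members 2-fold apart against 1. The age by tumor difference had medians of -0.028, 0.068, -0.073 and -0.00051, against -0.45. These shifts are what a common factor per library gives. The young tumor comparison kept 0 members 2-fold apart under all alternatives run, and the other pseudocount (0.01) left the 4 counts as they were.

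The share of all genes 2-fold apart in young tumor-bearing over young naive tissue was 17.0% with no floor, 1.63% with a floor of 5 FPKM and 2.66% among protein-coding genes, against 6.90%. For old over young naive tissue it was 20.5%, 5.34% and 6.32%, against 11.6%. No paired analysis was possible because each group was 1 library, and no replicate could be left out. With 289 reads or more behind each value, counting error is small, while variation between mice is unknown.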
